A study of Homo sapiens with 15 samples.

Results

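Gene expression was measured in 3 xenograft tumors carrying the K278R mutant of MOAP-1 and in 3 tumors carrying the empty vector, 6 of the 15 tumors of the series. The members were chosen by their labels alone, as the tumors titled K278R and Vector. All tumors grew in athymic nude mice from HCT116, a human colon cancer cell line, after transfection with Myc-tagged MOAP-1, its K278R or K264R mutant, RASSF1A, or the empty vector, with 3 tumors each. K278R and K264R replace 1 lysine of MOAP-1, at the position in their names, by arginine, a residue of the same charge that does not accept ubiquitin. By the study's methods the transfection of HCT116 was transient, pools of cells rather than single clones were injected, and HCT116 cells carry endogenous MOAP-1 and RASSF1A, so the vector tumors are a background of endogenous expression and not an absence of it. How long the K278R construct lasted in these tumors, and the age of the animals, are not given in the sources used here. Total RNA of 1 tumor was hybridized to 1 single-color Agilent array of human probes.

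MOAP-1 (modulator of apoptosis 1) is a short-lived adaptor of the death receptor pathway. After a death receptor such as TNF-R1 is engaged, RASSF1A binds MOAP-1 and opens it, and MOAP-1 then binds Bax through its BH3-like region. Bax changes shape, inserts into the outer mitochondrial membrane, and lets cytochrome c out, which activates caspases through Apaf-1. Ubiquitin-dependent degradation keeps MOAP-1 low, and TRIM39 stabilizes it.

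A level in this text is the log2 signal of a probe after the 75th percentile of its array was set to 0, so that a level of 1 is a signal of 2 times that percentile. A change is the mean level of the 3 K278R tumors minus that of the 3 vector tumors. Genes count as called here if at least 1 probe differed by 1.5-fold or more at an adjusted p below 0.05 in limma. The 75th percentile of signal was 931, 496, and 1152 in the K278R tumors and 631, 640, and 768 in the vector tumors, and 496, in K278R tumor 2, was the lowest of the series. On that array the 8 spike-in control transcripts that stood above the lowest signals had a mean level of 1.89, against −0.41 to 0.18 on the other 14 arrays. The 3 K278R arrays shared a slide with MOAP-1 tumor 2, and the 3 vector arrays shared another with RASSF1A tumor 3, so a slide effect and the K278R effect cannot be told apart. Markers of colon epithelium were bright in all 6 tumors, and EPCAM, an epithelial surface protein, had a level of 4.59, 4.39, and 4.56 in the K278R tumors and of 4.65, 5.06, and 5.10 in the vector tumors.

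The MOAP1 transcript was higher in the K278R tumors. At its only probe, in a gene that RefSeq places on chromosome 14 at 93182199 to 93184897 of GRCh38.p14, the level was 0.43, 0.42, and 0.53 in K278R tumors 1, 2, and 3 and −0.18, −0.53, and −0.13 in the vector tumors. The 3 K278R tumors were all above the 3 vector tumors. The change was 0.74 (SE 0.14, n = 3 and 3), a 1.67-fold rise, with an adjusted p of 0.0050 in limma. Whether the probe reads the introduced transcript, the endogenous transcript, or both is not known, so they cannot be told apart with it. Its place relative to the mutated residue was not examined. The level of MOAP1 was 0.59 ± 0.21 (SD, n = 3) in the tumors given the unmutated protein, 0.27 ± 0.18 (SD, n = 3) in the K264R tumors, and −0.41 ± 0.16 (SD, n = 3) in the RASSF1A tumors. K278R and MOAP-1 tumors differed in this transcript by −0.12, with a 95% interval of −0.44 to 0.19. RASSF1, the partner upstream of MOAP-1, lay between 1.52 and 1.94 in all 6 tumors, with a change of 0.10 (adjusted p = 0.53, limma), and the groups overlapped.

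**Figure D1:**
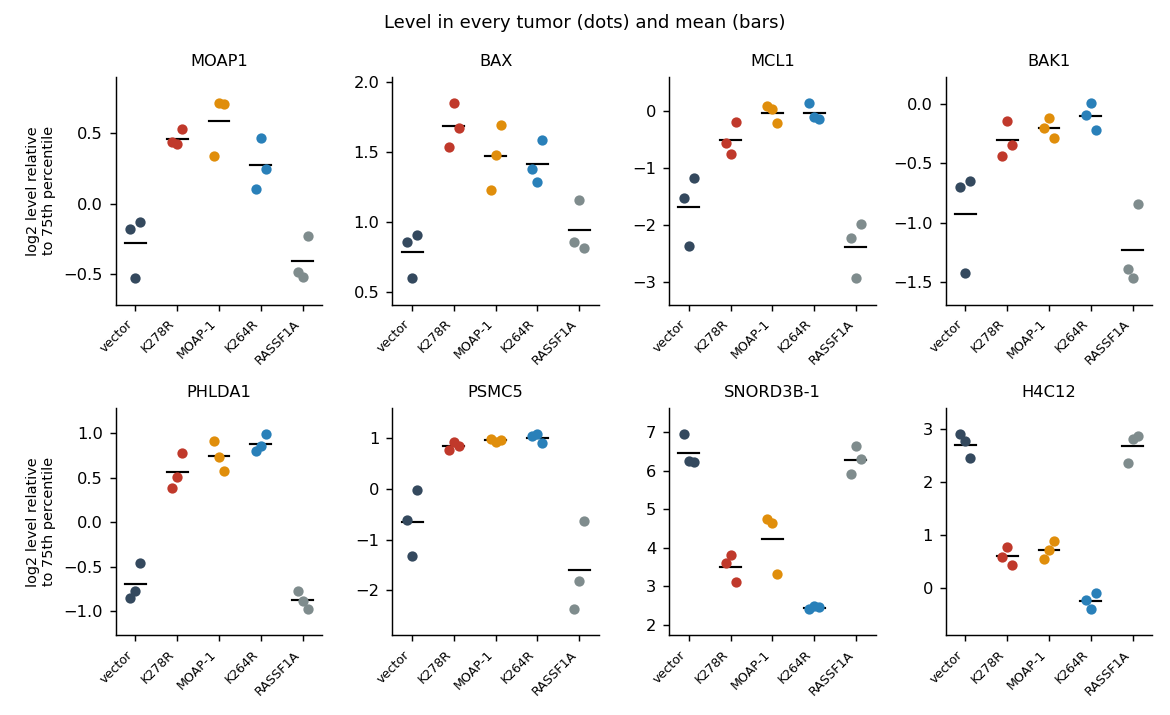
Level of 8 genes in every tumor of the 5 constructs (dots) with the group mean (bars); the y axis is the log2 level relative to the 75th percentile of the array. The 3 K278R tumors lie above the 3 vector tumors for MOAP1, BAX, MCL1, BAK1, PHLDA1, and PSMC5 and below them for SNORD3B-1 and H4C12.

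Across the array, 3207 of 25063 genes (12.8%) were called between K278R and vector tumors. Of these, 2274 (9.07%) had a probe that was higher in K278R and 957 (3.82%) a probe that was lower, with 24 genes in both counts. The labels do not say which tumors came from separate mice, and the p-values measure only the spread between these tumors. Without vector tumor 2 the count was 1638, and with a normexp background, which models local background in place of the scanner's own correction, it was 1. Once spots of extreme local background were set aside, the count with the normexp background was 1284. The spots set aside were 6 on the array of vector tumor 2, 9 on that of vector tumor 3, and 6 on that of K264R tumor 2, with none on the other arrays. Among the called probes, the 3 tumors of one group lay wholly above those of the other in 96.3%, whereas this was so for 37.3% of all 30585 probes. The excess of rises followed the brightness of the probe. In the dimmest 10% of the probes, 463 were called higher and 30 lower, with a median change of 0.31. In the brightest 10%, 68 were called higher and 256 lower, with a median change of −0.17. The share of the calls that were rises was 70.4% with the 75th percentile set to 0, but 54.2% after quantile normalization, 52.6% after centring on the median, and 49.1% with a normexp background once spots of extreme local background were set aside. Whether RNA yield, labeling, or the slide moved with brightness was not tested.

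**Figure D2:**
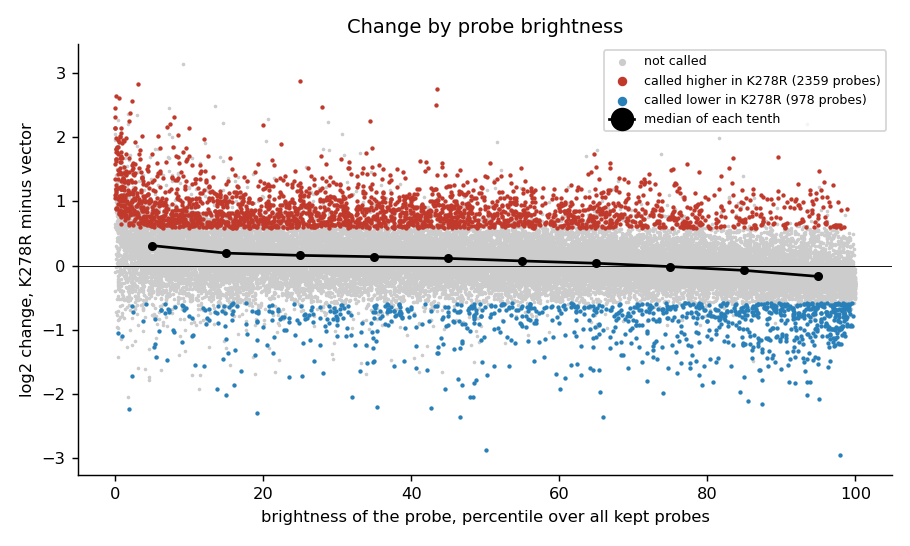
Change of each kept probe (K278R minus vector, log2) against its brightness, as a percentile over all kept probes. Red and blue points are probes called higher and lower in K278R and the black line joins the median change of each 10% of the probes, which runs from 0.31 in the dimmest to −0.17 in the brightest.

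Agreement between probes of the same gene limited how far a call described the gene. Of 4324 genes with more than 1 kept probe, 1030 had a call, and in 60 of these all probes were called in the same direction, 50 upward and 10 downward. In these 1030 genes, the called probe with the largest change was set against the other probes of its gene, called or not. These others numbered 1313, of which 61.5% changed in its direction and 144 did so by 1.5-fold or more.

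The largest rises that left no overlap between the groups included several genes of connective tissue. COL5A1, a chain of fibril-forming type V collagen, had levels of −3.09, −2.08, and −2.88 in the K278R tumors and −4.97, −5.11, and −6.63 in the vector tumors, a change of 2.88. Its second and brighter probe changed by −1.56 in the opposite direction, so that no direction can be given for the gene. THBS2, a matrix glycoprotein of the thrombospondin family, changed by 2.75 at one probe and by −0.22 at another. TAGLN (transgelin), an actin-binding protein of smooth muscle and myofibroblasts, rose by 2.499 at one probe, from a mean level of −3.58 to one of −1.08, while its other probe changed by 0.04. STAB1, a scavenger receptor of macrophages and sinusoidal endothelium, rose by 2.48 (SE 0.65, adjusted p = 0.019 in limma) at its only probe. In the MOAP-1 tumors the mean levels of these probes of COL5A1, THBS2, TAGLN, and STAB1 were −2.42, −0.79, −1.01, and −2.54.

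The remaining large rises were genes of other kinds. HERC6, an interferon-inducible member of the HERC ubiquitin ligase family, was at −2.60, −2.66, and −1.66 in the K278R tumors and at −4.52, −5.44, and −3.71 in the vector tumors, a change of 2.25 at one probe and of −0.32 at its second. SRF (serum response factor), a transcription factor of immediate early and muscle genes, rose by 1.83 (SE 0.44, adjusted p = 0.012 in limma), with levels of −2.26, −2.27, and −2.08 against −3.87, −4.998, and −3.25. DCAF8, a substrate receptor of CUL4 ubiquitin ligases, rose by 1.71 at one probe and changed by −0.15 at its other. CCDC170 rose by 1.76 at one probe and changed by 0.18 at its other, and its mean level of −2.11 in K278R stood beside −3.12 in the MOAP-1 tumors and −2.92 in the K264R tumors. LDHA, the muscle-type subunit of lactate dehydrogenase, rose by 1.70 at one probe and changed by 0.46 at its other.

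SRF binds the CArG box, CC and GG around a run of A and T, and acts on its own promoter and on that of TAGLN. The 250 bases before the first RefSeq start of SRF in GRCh38.p14 are printed because they hold this box at 30 and at 10 bases before the start, in capitals. The box was found, on both strands, in 1.16% of all 35116 promoter windows of the same length, and TAGLN had no window in the table used.
SRF, chr6:43171019-43171268, plus strand: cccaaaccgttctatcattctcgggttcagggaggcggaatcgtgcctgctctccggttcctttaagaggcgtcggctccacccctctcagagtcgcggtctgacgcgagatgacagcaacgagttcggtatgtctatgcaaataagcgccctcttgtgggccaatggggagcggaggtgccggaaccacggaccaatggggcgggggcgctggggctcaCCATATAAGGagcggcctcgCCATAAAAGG

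Among the largest falls, 2 genes for short unspliced RNAs stood out by their level. SNORD3B-1, a copy of the U3 small nucleolar RNA that takes part in cutting the ribosomal RNA precursor, was at 3.62, 3.80, and 3.11 in the K278R tumors and at 6.95, 6.24, and 6.22 in the vector tumors. Its change was −2.96 (SE 0.33, adjusted p = 0.0012 in limma), a 7.79-fold fall, and its second probe fell by 1.51. U3 is encoded by several near-identical copies, which a probe cannot keep apart. H4C12, one of the genes for histone H4, was at 0.59, 0.76, and 0.43 against 2.90, 2.77, and 2.44, a change of −2.11 (SE 0.16, adjusted p = 0.00020 in limma). Its second probe fell by 1.06. The groups did not overlap at the first of these probes.

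The other large falls were EBF2 (−2.36), a transcription factor of brown fat and other mesenchymal cells, GUCY2C (−2.31), the guanylin receptor of intestinal epithelium, DNAJC5B (−2.22), LOC100507547 (−2.17), BICC1 (−2.06), an RNA-binding protein, and JAKMIP2 (−2.03). AKNA changed by −2.20 at one probe and by 0.74 at its other, and the 2 other probes of LOC100507547 by −0.08 and −0.02. For GUCY2C the levels were −4.61, −6.01, and −5.02 in K278R and −2.33, −2.32, and −4.07 in vector, with no overlap.

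Some genes were called at each of their probes. PRKDC, the catalytic subunit of DNA-dependent protein kinase in nonhomologous end joining, rose by 1.36 and 1.39 at its probes. Its levels at the brighter probe were −0.66, −0.93, and 0.68 against −1.45, −1.65, and −1.89, and K278R tumor 3 was the highest. SNRNP40, a U5 snRNP protein of the spliceosome, rose by 1.52 and 1.25, STIP1, the co-chaperone that links HSP70 to HSP90, by 1.24 and 1.05, and FTL, the ferritin light chain, by 1.16 and 1.05. STAT3, a transcription factor downstream of cytokine receptors, rose by 0.97 and 1.09, and AHI1, ZNF337, and AIDA by 1.01 to 1.68. The falls by this measure, beside SNORD3B-1 and H4C12, were YBX3 (−0.90 and −1.11), a cold shock domain protein that binds DNA and RNA, ATXN3L (−1.93 and −0.96), PRR36 (−0.84 and −1.15), CASKIN1 (−0.75 and −0.88), ADAMTSL5 (−0.92 and −0.68), and ETV2 (−0.71 and −0.67). YBX3 was at 1.96, 1.71, and 1.96 in K278R and at 3.05, 2.74, and 2.52 in vector, with no overlap.

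For some called probes no vector tumor had a signal well above background, and only a lower bound on the fold can be given. The bound sets the K278R mean against the lowest signal that counted as well above background on each vector array, or the probe's own signal where that was higher. The 4 with the highest bounds were as follows. NPL, an enzyme of sialic acid breakdown, was at least 2.60-fold higher in K278R (adjusted p = 0.011), CXCL11, an interferon-inducible chemokine, at least 2.12-fold (adjusted p = 0.010), PSMD9, a proteasome assembly chaperone, at least 2.08-fold (adjusted p = 0.0011), and KCNT2, a potassium channel, at least 2.08-fold (adjusted p = 0.036), all from limma. The other probes of NPL changed by 0.07 and 0.20 and that of PSMD9 by 0.09. These probes were selected for signal in K278R and its absence in vector, so the p-values are no independent support. Relative to all probes, all 4 turned direction with the normexp background, but not once spots of extreme local background were set aside. No probe met this rule in the opposite direction.

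Gene lists were read at the brightest probe of each gene, with an adjusted p below 0.05 and no limit on the fold. By that measure 11.2% of all genes were higher in K278R and 8.55% lower, and the median change was 0.05. Of the 19 genes on the route from MOAP-1 to Bax, 5 were higher and 1 was lower, with a median of 0.10. BAX itself was at 1.53, 1.84, and 1.67 in K278R against 0.86, 0.59, and 0.90 in vector. The groups did not overlap, the change was 0.90 (SE 0.15, adjusted p = 0.0028 in limma), and its second probe changed by 0.19. BAK1, the other effector that opens the mitochondrial outer membrane, rose by 0.61, and BCL2L1, which encodes Bcl-xL and restrains both, by 0.42. TRAF2, an adaptor of TNF receptors, changed by −0.44 at its brightest probe (adjusted p = 0.044, limma) and by −0.02 at its other. The 13 others changed by −0.42 to 0.28 and missed the threshold, among them TNFRSF1A, which encodes TNF-R1 (0.10), BID (−0.29), and MTCH2, the mitochondrial receptor of Bid (0.12). They were RASSF1, RASSF5, TNFRSF10A, TNFRSF10B, TRADD, TRIM39, HTT, PNMA1, PNMA2, and PNMA3 beside these 3. The dimmer probe of PNMA1 rose by 0.80. The count higher was 3 without K278R tumor 1, K278R tumor 3, or vector tumor 2, 2 when only the 6 arrays were fitted, and 0 with the normexp background. It was 5 with that background once spots of extreme local background were set aside.

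Of the 19 BCL2 family members, 6 were higher and 3 lower, so that 47.4% passed the test against 19.8% of all genes. The 6 include BAX, BAK1, and BCL2L1, which were also counted on the route above, so the lists are not separate. MCL1, a short-lived survival protein, rose by 1.19, with levels of −0.56, −0.75, and −0.20 against −1.53, −2.37, and −1.18. BCL2 rose by 0.60 at its brightest probe and changed by −0.13 at its other. BMF, a BH3-only protein, rose by 0.70 at its brightest probe and by 0.21 at its other, and BOK, a Bax relative, fell by 0.66. Members that promote and members that oppose cell death were thus found among the rises. Of 22 caspases and their regulators, 5 were higher and 2 lower. CASP8, the initiator downstream of death receptors, rose by 0.70, APAF1 by 0.58, HTRA2 by 0.59, CASP1, an inflammatory caspase, by 1.05, and FADD, which recruits caspase-8, fell by 0.53. Of 28 p53 targets, 4 were higher, namely SESN1 (1.14), ZMAT3 (1.07), RRM2B (0.79, with 0.12 at its other probe), and the cell cycle inhibitor CDKN1A (0.67). MDM2 was lower at its brightest probe (−0.58) but changed by 0.34 and 0.24 at its others.

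**Figure D3:**
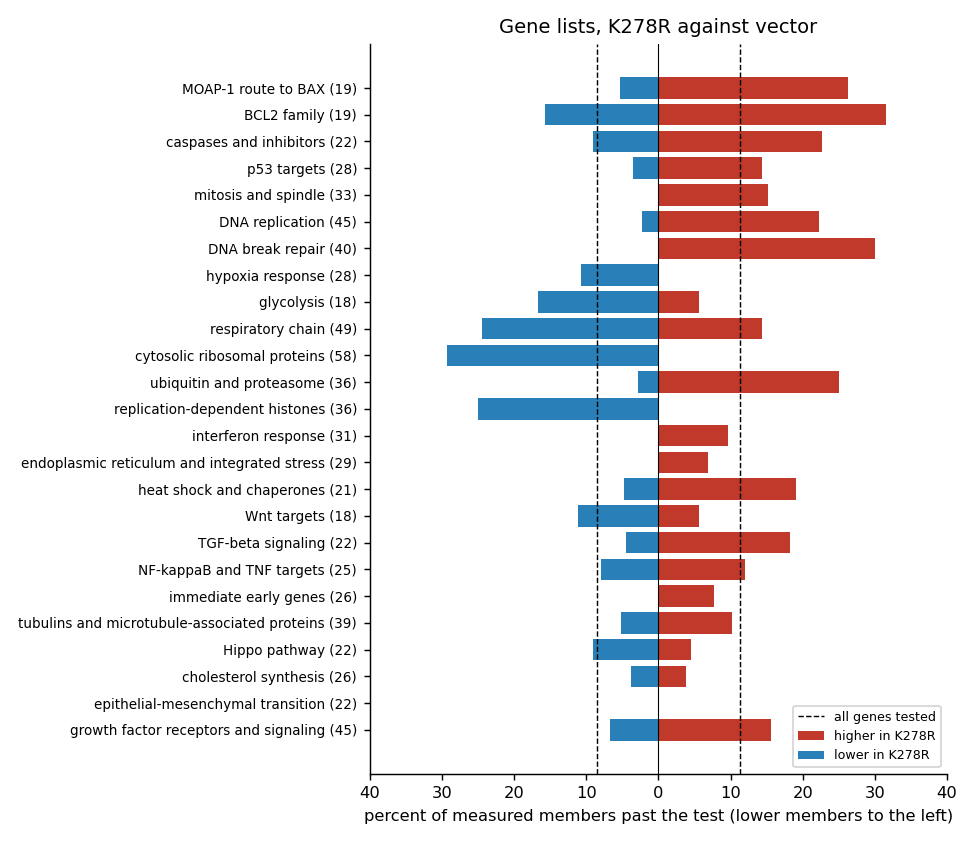
Percent of the measured members of each gene list (number in parentheses) with an adjusted p below 0.05, higher in K278R to the right and lower to the left, at the brightest probe of each gene. Dashed lines mark the shares over all genes, 11.2% higher and 8.55% lower.

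DNA break repair had 12 of 40 members higher and none lower, with changes of 0.31 to 1.36 among the 12 and a median of 0.12 over the list. They included PRKDC, NHEJ1 (0.78) and LIG4 (0.48) of end joining, FANCB (0.69) of the Fanconi complex, XRCC2 (0.60) of homologous recombination, and the checkpoint kinases CHEK1 (0.35) and CHEK2 (0.42, with −0.17 at its other probe). This count was 4 of 40 after quantile normalization and 4 of 40 without vector tumor 2 or K278R tumor 3. It was 5 without vector tumor 1, 8 without K278R tumor 1, 7 with 2 lower after median centring, 3 with the normexp background without extreme spots, 1 when only the 6 arrays were fitted, and 0 with the normexp background or with the methods' t-test after adjustment. DNA replication had 10 of 45 members higher and 1 lower. RRM2, the small subunit of ribonucleotide reductase, rose by 1.18, with levels of 1.30, 1.03, and 1.71 against 0.14, −0.21, and 0.57, and POLD2 rose by 0.98 and FEN1 by 0.85. Of 33 genes of mitosis and the spindle, 5 were higher and none lower, with TOP2A and AURKB at 0.94 each and a list median of 0.02. The count higher was 1 without vector tumor 2, 2 without vector tumor 1 or K278R tumor 3, 1 when only the 6 arrays were fitted, and 0 with the normexp background. It was 5 with that background once spots of extreme local background were set aside.

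Of 36 genes of ubiquitin and the proteasome, 9 were higher and 1 lower. PSMC5, an ATPase of the proteasome cap, was at 0.78, 0.92, and 0.85 in K278R and at −0.61, −1.32, and −0.03 in vector, a change of 1.50 (adjusted p = 0.013, limma). PSMD13 rose by 1.31, UBA1, the main ubiquitin-activating enzyme, by 1.29, and PSMB5, the chymotrypsin-like site, by 0.99, whereas PSMA6 fell by 0.34. Of 21 chaperones, 4 were higher, with TCP1 at 1.50, HSP90AB1 at 1.30, and HSPA8 at 1.11, and HSF1, the heat shock transcription factor, was lower at its brightest probe (−0.58, with −0.39 and 0.40 at its others). The second probe of TCP1 changed by −0.31 and that of HSP90AB1 by 0.73. In both lists the spread among vector tumors was wide, with vector tumor 2 the lowest for PSMC5, PSMD13, TCP1, and HSP90AB1.

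The respiratory chain was divided. Of 49 members, 7 were higher, among them NDUFA9 (1.22) and ATP5F1B (1.09), and 12 were lower, by 0.25 to 0.52 on the log2 scale, among them UQCRH (−0.52), COX6C (−0.45), and NDUFB3 (−0.43). Cytosolic ribosomal proteins, the brightest of the lists, had 17 of 58 members lower and none higher, with a median of −0.26. Relative to all genes that median was 0.00 after quantile normalization, where 2 were higher and none lower, and 0.41 with the normexp background. With that background without extreme spots it was −0.18, and 9 members were lower. The count was 2 without vector tumor 2, 4 without K278R tumor 3, 10 or 11 without vector tumor 3, vector tumor 1, or K278R tumor 1, and 28 without K278R tumor 2. RPLP0 was at 7.17, 7.07, and 6.86 against 7.54, 7.63, and 7.46 at its brighter probe, with a change of 0.31 at its other, and RPL19 fell by 0.50. Of 18 glycolysis genes, PFKL, the liver-type phosphofructokinase, was lower by 1.43 on the log2 scale (a change of −1.43), GPI changed by −0.56 and PGK1 by −0.36, and ENO2 rose by 0.97. Of 28 hypoxia genes none was higher and 3 were lower, namely SLC2A1 (−0.50), STC2 (−0.48), and PGK1.

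Replication-dependent histones had 9 of 36 members lower and none higher. The median was −0.28, and it stayed below that of all genes in every scaling tried except the normexp background, where it was 0.16 above it. Of the 9, 6 encode histone H4, and the others were H1-1 (−0.48), H1-3 (−0.50), and H3C1 (−0.53). H4C11 was at 1.099, 2.02, and 1.13 in the K278R tumors and at 3.03, 3.03, and 2.54 in the vector tumors, a change of −1.45 (adjusted p = 0.0025, limma). H4C4 and H4C1 fell by 0.79 each, with 0.02 at the other probe of H4C1, H4C13 and H4C3 by 0.75, and H4C2 by 0.68. H4C5, H4C6, H4C8, and H4C9 changed by −0.23 to −0.70 and missed the threshold, and H4C14, the 11th H4 gene of the list, had no kept probe. The mean level of the 36 genes was 0.12, 0.77, and 0.04 in the K278R tumors and 0.61, 0.69, and 0.47 in the vector tumors. K278R tumor 2 was thus above each vector tumor in this mean. Without K278R tumor 2, 19 histone genes passed, and without K278R tumor 3 it was 5 lower and 1 higher. Without vector tumor 2 it was 5 lower, and when only the 6 arrays were fitted 2. Histone genes are near-copies of each other, and a probe may read several of them.

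The promoters of 4 of these H4 genes are printed because 2 short sequences recur in them at close to the same place. Each run is the 250 bases before the RefSeq start in GRCh38.p14, and capitals mark GGTCCG and, nearer the start, TATAAA. On both strands, GGTCCG was found in all 9 H4 genes of the list with a window and in 9.43% of all windows. TATAAA was found in 4 of the 9, H4C2, H4C4, H4C11, and H4C13, and in 10.7% of all windows. These 4 were the H4 genes of the list that both had a window and passed the test, and the other 5 with a window, of which H4C14 was not measured, had none. Passing the test did not order these genes by the size of their fall. H4C6, without TATAAA, changed by −0.70 and H4C2, with it, by −0.68, and H4C8 and H4C9, without it, by −0.61 and −0.58. Among the 28 histone genes of the list other than H4 with a window, 23 held TATAAA and 3 held GGTCCG. H4C12, which is outside the list, held both sequences, and 245 of its 250 bases were those of H4C11 at the same place.
H4C11, chr6:27823842-27824091, plus strand: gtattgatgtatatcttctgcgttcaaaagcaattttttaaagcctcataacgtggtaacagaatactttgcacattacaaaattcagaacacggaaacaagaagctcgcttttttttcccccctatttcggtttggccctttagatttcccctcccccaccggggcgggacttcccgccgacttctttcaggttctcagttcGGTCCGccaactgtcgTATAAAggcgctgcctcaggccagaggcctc
H4C12, chr6:27831561-27831810, minus strand: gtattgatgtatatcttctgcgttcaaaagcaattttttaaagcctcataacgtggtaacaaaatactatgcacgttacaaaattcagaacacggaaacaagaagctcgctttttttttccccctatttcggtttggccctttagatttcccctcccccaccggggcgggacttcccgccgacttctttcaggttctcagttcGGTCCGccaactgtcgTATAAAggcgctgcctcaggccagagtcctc
H4C4, chr6:26189113-26189362, minus strand: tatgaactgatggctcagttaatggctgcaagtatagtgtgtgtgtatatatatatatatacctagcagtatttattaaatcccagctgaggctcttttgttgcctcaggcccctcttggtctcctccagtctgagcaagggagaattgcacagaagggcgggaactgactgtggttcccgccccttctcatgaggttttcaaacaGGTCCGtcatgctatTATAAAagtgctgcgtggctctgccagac
H4C13, chr6:27873535-27873784, minus strand: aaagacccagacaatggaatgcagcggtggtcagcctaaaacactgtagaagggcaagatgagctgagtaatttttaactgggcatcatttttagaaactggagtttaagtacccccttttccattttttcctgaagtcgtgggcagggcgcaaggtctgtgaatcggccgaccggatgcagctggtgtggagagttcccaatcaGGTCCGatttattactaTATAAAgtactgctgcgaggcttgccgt

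Among genes of growth factor signaling, 7 of 45 were higher and 3 lower. PHLDA1, a target of ERK signaling, was at 0.39, 0.51, and 0.78 in K278R and at −0.86, −0.78, and −0.46 in vector. The groups did not overlap, and the change was 1.26 (SE 0.13, adjusted p = 0.0012 in limma). ETV5, another ERK target, rose by 1.07, JAK1 by 1.21, and MTOR by 0.59. Of 25 genes of NF-kappaB and TNF signaling, 3 were higher and 2 lower, with RELA, the p65 subunit, higher by 0.89 and 0.69 at its 2 probes, IL1B by 0.42, and TNF by 0.41, and CXCL2, a neutrophil chemokine, lower (−0.90) beside NFKBIE (−0.36). Of 22 TGF-beta genes, 4 were higher, namely LTBP2 (0.97), SMAD2 (0.91), TGFB1 (0.76), and TGFBR3 (0.72), and BAMBI was lower (−0.63). Of 31 interferon genes, PSMB9 (0.99), STAT2 (0.67), and IRF1 (0.62) were higher.

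Of 39 tubulins and microtubule-associated proteins, 4 were higher and 2 lower, with MAP1B at 0.77, TUBG2 at 0.74, TUBA1A at 0.66, and MAP1S at −0.997. Of 22 Hippo pathway genes, MOB1B was lower (−1.23, with −0.36 and 0.23 at its other probes) and AMOTL1 was higher (0.92, with −0.34 at its other probe). STK4 changed by −0.29 at its brightest probe and by 1.07 at its other, both past the test, so that no direction can be given for the gene. Of 29 genes of endoplasmic reticulum stress, PDIA6 (1.19) and PDIA4 (0.51) were higher. Of 26 immediate early genes, SRF and ELK1 (0.57, with 0.09 and 1.02 at its other probes) were higher. Of 18 Wnt targets NKD1 (0.39) was higher and RNF43 (−0.46) and ZNRF3 (−0.44, with 0.12 at its other probe) were lower. None of 22 genes of epithelial-mesenchymal transition passed the test. Of 26 cholesterol synthesis genes, MSMO1 was higher (0.66) and DHCR7 lower (−0.34).

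Markers of other cell types passed the test in shares near or below the 19.8% of all genes. The share was 18.2% of fibroblast and of endothelial markers, 15.4% of leukocyte markers, and 14.3% of erythroid markers. A xenograft holds mouse stroma, and human probes may read mouse transcripts. Of 11 measured fibroblast markers, 10 had a higher mean in K278R, the median change was 1.34, and 1 (PDGFRB, 1.34) was higher and 1 (COL5A1 at its brighter probe) lower by the test. COL1A1, the main chain of type I collagen, was at 3.27, 4.89, and 2.81 in K278R and at 1.79, 1.96, and 0.57 in vector, with no overlap, and its change of 2.22 missed the threshold (adjusted p = 0.055, limma). The mean level of the 11 markers was −1.01, 0.14, and −0.87 in K278R and −0.91, −1.11, and −3.00 in vector. It was thus lowest in vector tumor 3, without which the median change was 0.57. The part of the stroma in the values of STAB1 and of the discordant probes of TAGLN, THBS2, and COL5A1 was not tested.

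Skeletal muscle markers differed between single tumors. In vector tumor 1 the level of MYH2, a myosin heavy chain, was 4.06 and that of MYL1 2.58, against −3.91 to −0.27 and −6.68 to −0.47 in the other 5 tumors. The median change of the 8 muscle markers was −0.68 with vector tumor 1 and 0.51 without it, and 1 of them, DES, passed the test (−0.57). Of 11 endothelial markers TIE1 (2.31) and KDR (0.41) were higher, of 13 leukocyte markers PTPRC (0.69 at its brightest probe, −0.32 to 0.86 at its others) was higher and TYROBP (−1.34) lower, and of 7 erythroid markers ALAS2 (0.37) was higher. No marker of adipocytes (4 measured) or skin keratinocytes (6 measured) passed. Among 18 colon epithelium markers EPCAM (−0.42) and CDX1 (−0.37, with 0.08 at its other probe) were lower and CEACAM5 (0.54) was higher. In bulk tumors, fewer cells of a type and less RNA per cell cannot be told apart.

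**Figure D4:**
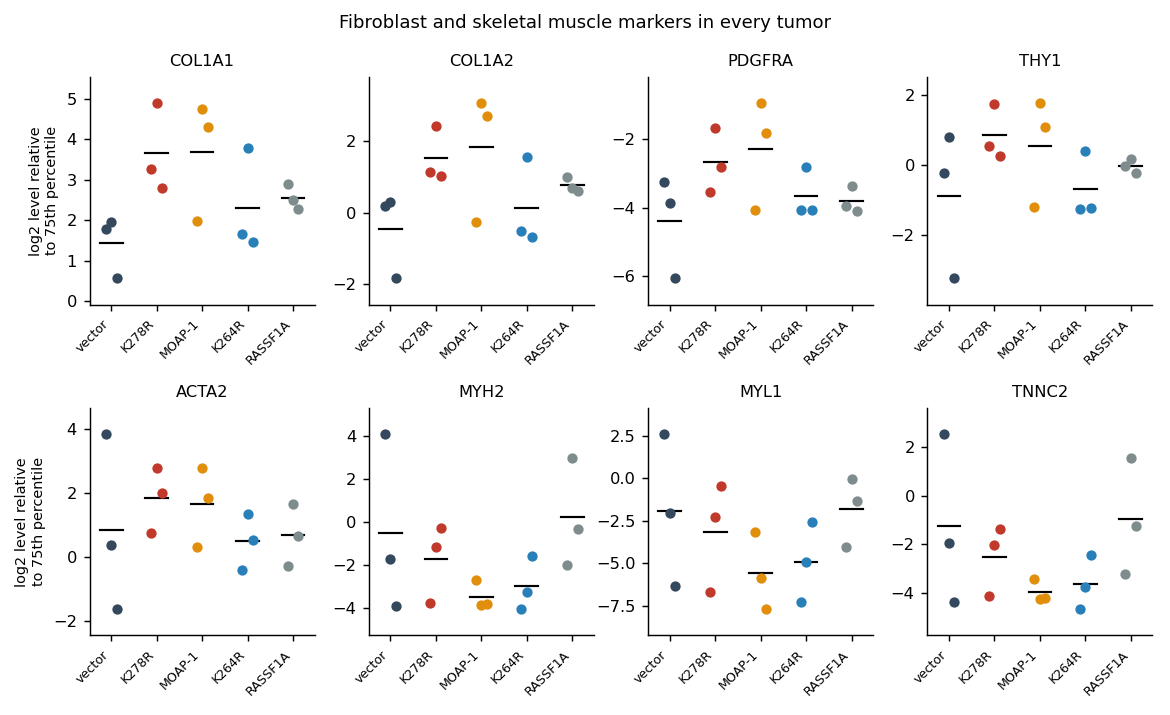
Level of 5 fibroblast markers (COL1A1, COL1A2, PDGFRA, THY1, ACTA2) and 3 skeletal muscle markers (MYH2, MYL1, TNNC2) in every tumor (dots) with the group mean (bars); the y axis is the log2 level relative to the 75th percentile. Vector tumor 1 stands above the other vector tumors for the muscle genes, and vector tumor 3 is lowest for the collagens.

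The K278R tumors were set against those of unmutated MOAP-1 to ask which changes depend on the residue. No gene was called (0 of 25063, 0%), and no probe had an adjusted p below 0.05 in limma, the smallest being 0.065, while 2821 probes had an unadjusted p below 0.05. A median probe had a 95% interval of ±0.32 around its difference, and for 67.9% of probes the interval lay within 1.5-fold in either direction. Larger differences at the other probes are not resolved by 3 tumors against 3. The 3 K278R arrays and that of MOAP-1 tumor 2 shared a slide. Within that slide 17 genes were called, but with a single MOAP-1 array, which was assumed to vary like the other groups. K278R tumor 3 bore on the count, which was 200 genes without it, 27 higher and 173 lower in K278R, and the unadjusted selection at 1.5-fold with the methods' t-test gave 143 genes. For BAX the mean was 1.68 in K278R and 1.47 in MOAP-1 tumors, with a 95% interval of the difference of −0.11 to 0.54. For H4C12 the means were 0.59 and 0.71.

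The K278R and K264R tumors differed in 173 of 25063 genes (0.69%), 109 higher (0.435%) and 64 lower (0.255%) in K278R. The share of calls that were higher was 63.0%, against 20.8% after quantile normalization, 44.4% after centring on the median, and 89.9% with the normexp background once spots of extreme local background were set aside. The count was 8, 67, and 1611 without K278R tumor 1, 2, or 3, and 6, 56, and 12 without K264R tumor 1, 2, or 3. The slides of these tumors were different ones, so that slide and mutant cannot be told apart here either. The largest rises were ACKR5, a chemokine-binding receptor (1.96), C5AR1, the receptor of complement C5a (1.37), TRPC2 (1.21), ASAP1-IT1 (1.15), and GOLGA8EP (1.08, with −0.03 at its other probe). Among the largest falls were HMGCS1 (−1.70), EPGN, an EGF family ligand (−1.54), MATCAP2 (−1.30), and MSMO1 (−1.18). C5AR1 was at −3.77, −3.88, and −3.93 in the K278R tumors, near the vector tumors at −3.53, −3.73, and −3.65, with a mean of −5.23 in the K264R tumors.

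HMGCS1 and MSMO1 belong to cholesterol synthesis, a pathway switched on by SREBP-2 when sterols are low. HMGCS1 makes HMG-CoA, and MSMO1 removes methyl groups from the sterol ring. HMGCS1 was at −0.68, −0.48, and 0.29 in the K278R tumors, at 1.52, 1.14, and 1.56 in the K264R tumors, at 0.78, 0.50, and 0.64 in the MOAP-1 tumors, and at −0.36, −0.68, and −0.55 in the vector tumors. No K278R tumor reached any K264R tumor. Of the 26 measured genes of the list, 8 passed the test and all 8 were lower in K278R, against 177 of 25063 genes over the array, and the list had a median difference of −0.52. Further members of these were INSIG1 (−1.12), which retains the SREBP complex in the endoplasmic reticulum, STARD4 (−0.92), a cholesterol carrier, FDFT1 (−0.78), and CYP51A1 (−0.57). The count was 11 after quantile normalization, 2, 4, and 3 without K264R tumor 1, 2, or 3, 3 without K278R tumor 1, 0 when only the 6 arrays were fitted, and 0 with the normexp background. It was 17 with that background without extreme spots, and the median stayed below that of all genes in each of these.

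Against the MOAP-1 tumors none of the same 8 genes passed, with differences of −0.93 for HMGCS1 and MSMO1 and −0.34 for CYP51A1. Against vector, HMGCS1 changed by 0.24 and did not pass the test. For HMGCS1 the order of the means was K264R, MOAP-1, RASSF1A, K278R, and vector, with K278R and vector tumors overlapping, and the 95% interval of the difference between K278R and MOAP-1 was −1.40 to −0.47 before adjustment over all probes.

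**Figure D5:**
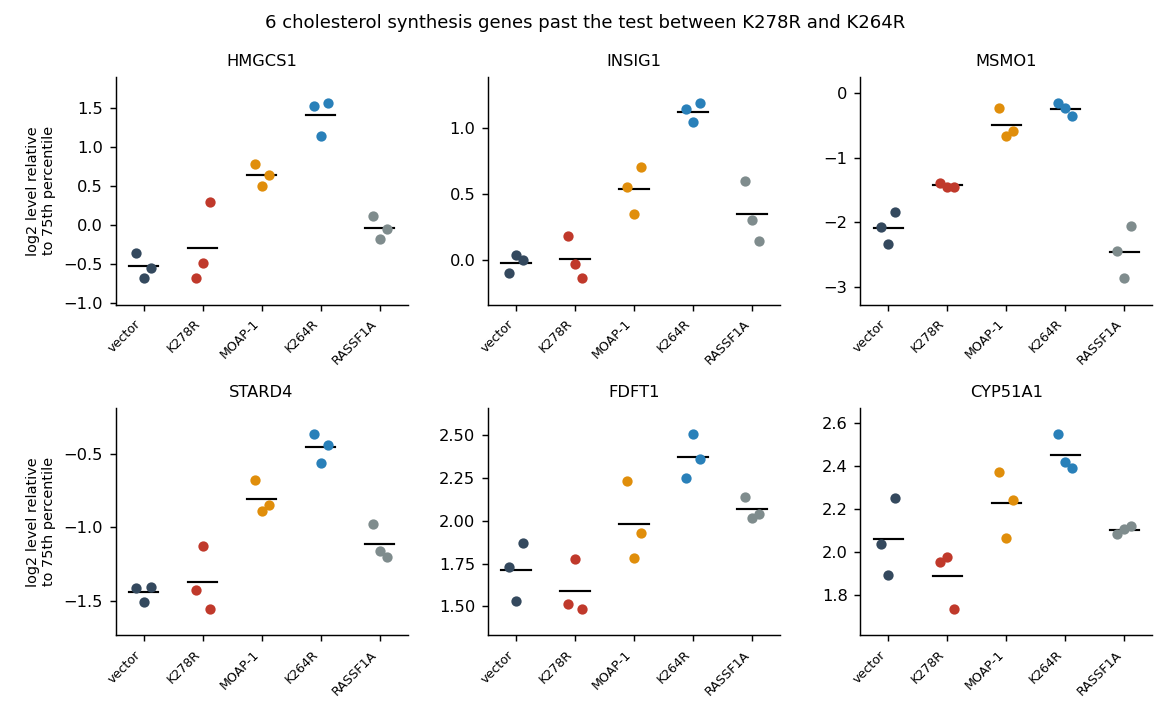
Level of 6 of the 8 cholesterol synthesis genes past the test between K278R and K264R, in every tumor (dots) with the group mean (bars); the y axis is the log2 level relative to the 75th percentile. The 3 K278R tumors lie below the 3 K264R tumors for each gene, and the MOAP-1 mean lies between their means.

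The promoters of HMGCS1 and MSMO1 are printed for the CCAAT sequence in capitals (ATTGG on the other strand), which NF-Y binds beside SREBP in many sterol-regulated genes. It was found in 16 of the 19 genes of the list with a window and in 32.0% of all windows, and TCACNCCAC, a form of the sterol element, in 1 of 19 and in 0.883%. A gene of the list counted if any of its windows held the sequence, whereas the shares over all are of single windows. The measures are thus unlike for genes with more than 1 window, such as HMGCS1. Each run is the 250 bases before the first RefSeq start in GRCh38.p14.
HMGCS1, chr5:43313413-43313662, minus strand: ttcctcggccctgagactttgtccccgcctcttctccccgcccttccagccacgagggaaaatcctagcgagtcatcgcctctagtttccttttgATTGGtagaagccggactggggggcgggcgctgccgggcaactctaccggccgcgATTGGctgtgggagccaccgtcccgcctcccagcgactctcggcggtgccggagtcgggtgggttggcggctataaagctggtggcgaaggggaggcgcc
MSMO1, chr4:165327419-165327668, plus strand: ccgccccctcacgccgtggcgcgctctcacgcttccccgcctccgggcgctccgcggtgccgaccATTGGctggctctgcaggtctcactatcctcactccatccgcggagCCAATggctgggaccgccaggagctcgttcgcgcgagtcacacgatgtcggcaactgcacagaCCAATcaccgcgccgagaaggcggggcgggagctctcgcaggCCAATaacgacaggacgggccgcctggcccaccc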

How the data were processed

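Tumor RNA was labeled with Cy3 and hybridized to single-color Agilent 4x44K arrays by the authors. The deposited scanner files hold spot intensities, and gProcessedSignal is the intensity after the scanner software's background correction; the labels' processing notes name Agilent Feature Extraction 9.1. The authors also deposited a log2 table from GeneSpring, normalized by them, which served as an alternative.

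Here, the log2 of gProcessedSignal was taken, control spots and outlier-flagged spots were left out, arrays were scaled so that their 75th percentile lay at 0, and replicate spots were averaged, giving 34127 probes. Probes well above background in every tumor of 1 or more constructs were kept (30585 probes, 25063 genes). Spots well above background made up 85.1% to 93.1% of an array, and the number of arrays limits the precision. Constructs were compared with limma 3.58.1 in R 4.3.3, in a fit of all 15 arrays with construct as the only term and 10 residual degrees of freedom, with Benjamini-Hochberg adjustment over all kept probes. Scripts were tested on simulated data.

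Groups came from the labels. The tumors compared, the gene lists, and the marker lists were chosen with earlier results of these data known. Named genes were MOAP1 and RASSF1, the 10 largest rises and falls without overlap between groups, the 8 largest each way among genes called at every probe, the 4 highest bounds, up to 4 members of each list past the test, members of the MOAP-1 route, and the 5 largest changes each way against K264R. Other list and marker genes were named after their values were seen. Names and promoter sequences came from RefSeq tables of GRCh38.p14. Alternatives were quantile normalization, median centring, normexp background (offset 50) with and without spots above 3 times the median background, 3 filters on dim probes, only the arrays compared, each array left out, the methods' t-test, the authors' table, array weights, replicate and slide blocks, the brightest probe, and limma-trend. List counts without each array were added after the data were seen. Some genes that these rules name are not reported here.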

Additional observations from a re-analysis of the deposited data

Results flagged for a closer look

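The tumors of the K278R and K264R mutants, set against each other directly, differed in 173 genes in limma. Their arrays lay on different slides, so the comparison cannot tell an effect of the mutant from an effect of the slide. The count was 0 when only the arrays compared were fitted, and 6 to 1611 when a single array was left out. Among the 26 measured cholesterol synthesis genes, 8 passed the test between these tumors in limma, all lower in K278R. The same limit of the slides holds for them.

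The spike-in control transcripts, which no comparison used, had a mean log2 level of 1.89 relative to the 75th percentile on the array of K278R tumor 2. On the other 14 arrays this level was −0.41 to 0.18. With 3 tumors in each group, single tumors were not tested as outliers.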

How the results depend on the processing

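Against vector, the 3207 genes called became 1 with the normexp background, 1284 with it once spots of extreme local background were set aside, 1144 when only the 6 arrays were fitted, and 0 with the methods' t-test after adjustment (3015 unadjusted; 7757 probes at an unadjusted p below 0.05). Leaving out 1 array gave 1638 to 3769. The MOAP1 rise missed the threshold with the normexp background (1.09 relative to all probes, adjusted p = 0.17 in limma) and with the adjusted t-test (0.74, adjusted p = 0.14), and was 0.62 to 0.82 with 1 array left out. Against MOAP-1, 0 genes became 1 under quantile normalization, median centring, the filter on all 15 arrays, or slide as a random block, 17 within the shared slide (where the MOAP-1 arm was 1 array, assumed to vary like the other groups), 143 with the unadjusted t-test, and 0 to 200 with 1 array left out. Against K264R, 173 became 0 with the normexp background, 1272 with it without extreme spots, 0 when only the arrays compared were fitted, 0 with the adjusted and 928 with the unadjusted t-test, 1643 with array weights, 941 with slide as a random block, and 6 to 1611 with 1 array left out. The causes were not tested.

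Same-numbered K278R and vector tumors had deviations correlated at −0.18, 0.19, and 0.10 across probes, so the numbers were not taken to pair tumors. With the replicate block the counts were 3413 against vector, 0 against MOAP-1, and 81 against K264R.

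Of 150 changes of named probes, 39 turned direction with the normexp background, here relative to the shift of −0.53 in the median of all probes against vector, and the cause was not tested: ADAMTSL5 0.12, AHI1 −0.35, AIDA −0.24, APAF1 −0.40, BID 0.47, BMF −0.44, BOK 0.10, CASP1 −0.46, CXCL11 −0.80, DHCR7 0.40, ELK1 −0.31, GPI 0.23, H4C13 0.024, HSF1 0.23, IL1B −0.46, JAK1 −0.014, KCNT2 −0.89, LTBP2 −0.91, NHEJ1 −0.15, NKD1 −0.29, NPL −0.86, PARP3 −0.21, PGK1 0.43, PSMD9 −0.90, RNF43 0.27, RPL12 0.38, RPL19 0.31, RPL31 0.38, RPLP0 0.30, SLC2A1 0.31, STAT3 −0.21, STK4 0.49, TGFBR3 −0.81, TNF −0.23, TRAF2 0.27, ZMAT3 −0.016, ZNF337 −0.36, ZNF337 −0.13, ZNRF3 0.27. The extreme spots were few, with 6 on the array of vector tumor 2, 9 on that of vector tumor 3, and 6 on that of K264R tumor 2. With the normexp background without extreme spots, 1 of the 150 turned direction, EPGN against K264R at 0.043. Of the rest, 113 kept their result and 36 kept their direction but missed the threshold. TNFRSF1A became −0.051 without K278R tumor 2, and MTCH2 was −0.059 to 0.24 with 1 array left out, lowest without K278R tumor 3.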

Other observations

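In the authors' log2 table the columns labeled K278R tumors 2 and 3 were exchanged relative to the scanner files, with a correlation of 1 across probes when crossed. Columns 2 and 3 of the MOAP-1 tumors were exchanged in the same way, and columns 1, 2, and 3 of the RASSF1A tumors matched RASSF1A arrays 3, 1, and 2. Each column still matched an array of its own construct.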
